A study of Homo sapiens with 6 samples.

Results

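The carriers of solute carrier family 25 (SLC25) move metabolites, nucleotides, cofactors and inorganic ions across the inner mitochondrial membrane, and a few members sit in peroxisomes or in the outer mitochondrial membrane. Members were taken by name, as every gene symbol made of SLC25A followed by a number alone, which gave 48 genes of the 43424 symbols in the count files. Of these, 38 had enough reads to be tested, 4 had reads but fell below the filter on low counts, and 6 had no read in any library. The libraries came from HL-60, a human acute myeloid leukaemia cell line given as wild type, after 6 months of culture with DMSO or with an extract of Corydalis incisa (Thunb.) Pers. (CIP) raised stepwise from 2 to 20 µg/ml. There were 3 libraries for each label, and the CIP-labelled cells are those that the series describes as resistant. QuantSeq, a method that sequences only the 3′ end of polyadenylated RNA, gave 8143657 to 10868396 counts per library. Levels are depth-scaled counts (CPM) after TMM scaling, which evens out composition between libraries, and are not divided by gene length because each transcript gives about 1 read at its end whatever its length.

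An SLC25 carrier is built from a repeated pair of membrane helices and switches between a state open to the cytosol and one open to the matrix, usually exchanging a substrate for another. The family supplies ATP synthase with ADP and phosphate, exports ATP and citrate, runs the malate-aspartate shuttle, and brings amino acids, acylcarnitines, iron and vitamin-derived cofactors to matrix enzymes. In blood cells it is best known for the mitoferrins and the glycine carrier, which feed haem synthesis.

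The identity given for the line was first read from 9 genes that mark HL-60 and promyelocytes, all of which were detected. MPO, the myeloperoxidase of primary granules, was at 8672 ± 282 CPM (SD, n = 3) with the CIP label and at 1.12 ± 0.323 CPM (n = 3) with the DMSO label, and it made up most of the summed level of the 9 genes with the CIP label, 9814 to 10409 CPM against 1885 to 1993 CPM. Without MPO the order turned, and the other 8 genes summed to 1262 to 1593 CPM with the CIP label and 1883 to 1992 CPM with the DMSO label. Of the 9 genes 5 were higher and 4 lower with the CIP label (edgeR, adjusted p under 0.05). Of all 12844 tested genes, 34.9% were higher and 38.2% lower. The granule genes ELANE (332 ± 32.9 against 591 ± 48.6 CPM), CTSG (95.3 ± 4.77 against 653 ± 28.1 CPM), AZU1 and LYZ were the lower ones, while PRTN3 and CD33 were expressed with both labels, at 286 ± 18.8 and 65.6 ± 7.60 CPM with the DMSO label. MYC (279.8 ± 52.3 against 41.7 ± 3.89 CPM) and CEBPE (157 ± 16.0 against 10.2 ± 1.56 CPM) were higher with the CIP label, as MPO was. The near absence of MPO in the DMSO-labelled libraries goes against the abundant myeloperoxidase known of HL-60. The other 8 markers were expressed there, with CEBPE the lowest of them by mean level. The groups are named by their labels below. Whether the replicates came from separate cultures is not stated, and the p-values therefore cover only the spread between these libraries, which may be technical. In bulk RNA, fewer cells of a type and less RNA per cell cannot be told apart.

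Most carrier genes differed between the labels, and they differed in both directions. With edgeR's quasi-likelihood test, 33 of the 38 tested members (86.8%) passed an adjusted p under 0.05, beside 73.1% of all 12844 tested genes. Of these, 18 were higher with the CIP label (47.4% of tested members, beside 34.9% of all tested genes) and 15 were lower (39.5%, beside 38.2%). A test for a change beyond 2-fold called 11 members (28.9%), a share close to the 28.7% of all tested genes. Of those 11, 4 rose, among them SLC25A20, SLC25A22 and SLC25A33, and 7 fell, namely SLC25A12, SLC25A23, SLC25A32, SLC25A35, SLC25A37, SLC25A41 and SLC25A42. Of the 3689 genes that this test called among all tested genes, 1271 rose and 2418 fell, so falls outnumbered rises there too. The libraries of the groups did not overlap for 32 of 38 members, beside 75.4% of all tested genes. Log2 fold changes of the tested members ran from -4.80 to 2.00, and those of all tested genes from -13.10 to 13.47. The widths of these ranges cannot be compared, because they cover 38 and 12844 genes. The 4 most reduced members lay between -3.39 and -4.80. Among them, SLC25A35, SLC25A41 and SLC25A42 had at most 10 counts in any CIP-labelled library. The median log2 fold change of the tested members was 0.24 and that of all tested genes was -0.03. Scaled by library totals instead, these medians were 0.01 and -0.26.

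**Figure D1:**
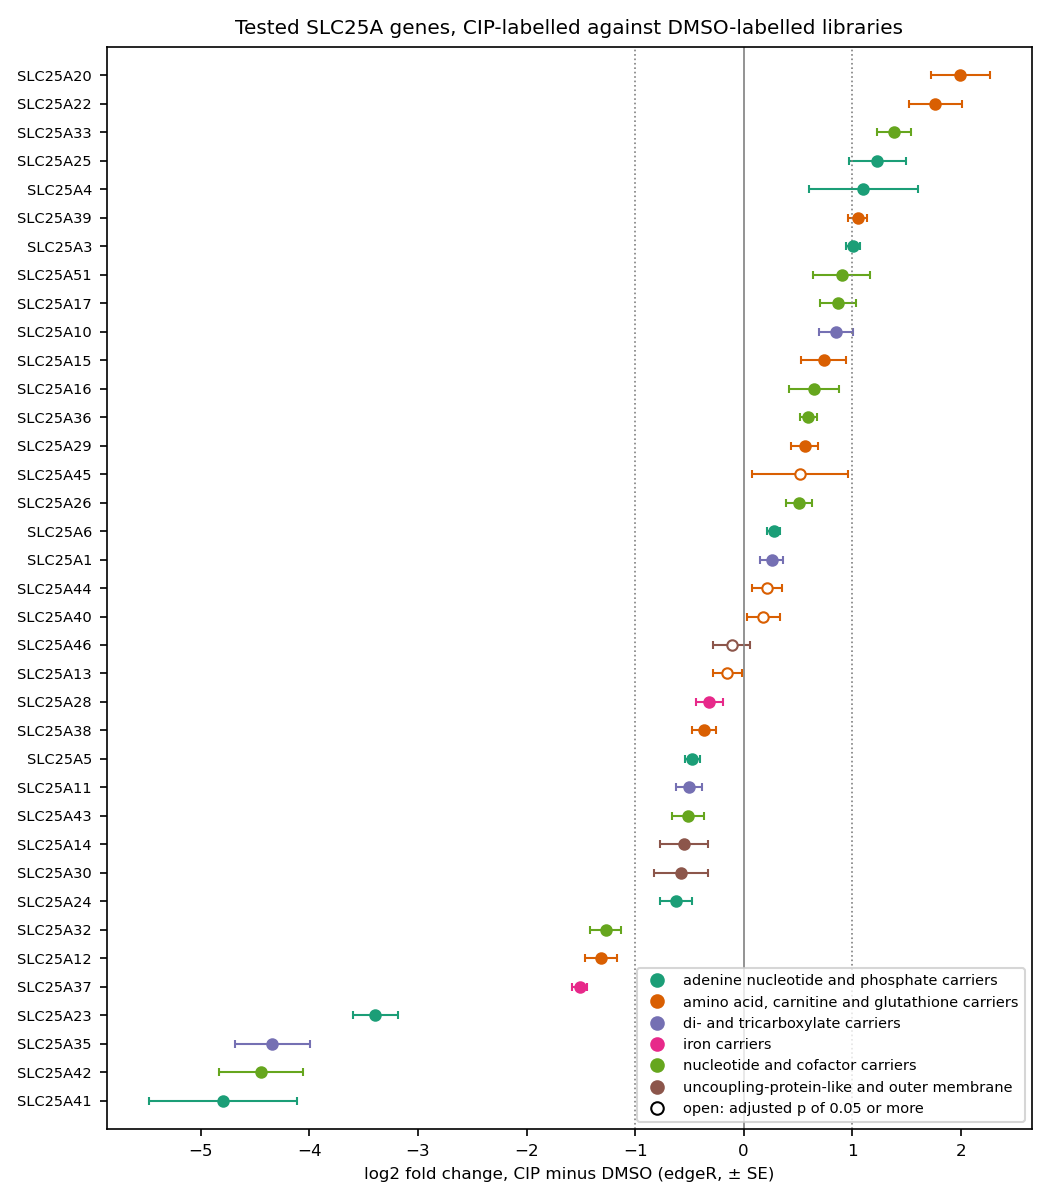
Log2 fold change (CIP minus DMSO, edgeR, ± SE) of 37 of the 38 tested SLC25A genes, ordered by value and coloured by substrate group, with filled points for an adjusted p under 0.05 and dotted lines at a 2-fold change. SLC25A23, SLC25A35, SLC25A42 and SLC25A41 lie apart on the lower side, at -3.39 to -4.80, while the highest gene, SLC25A20, is at 2.00.

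**Figure D2:**
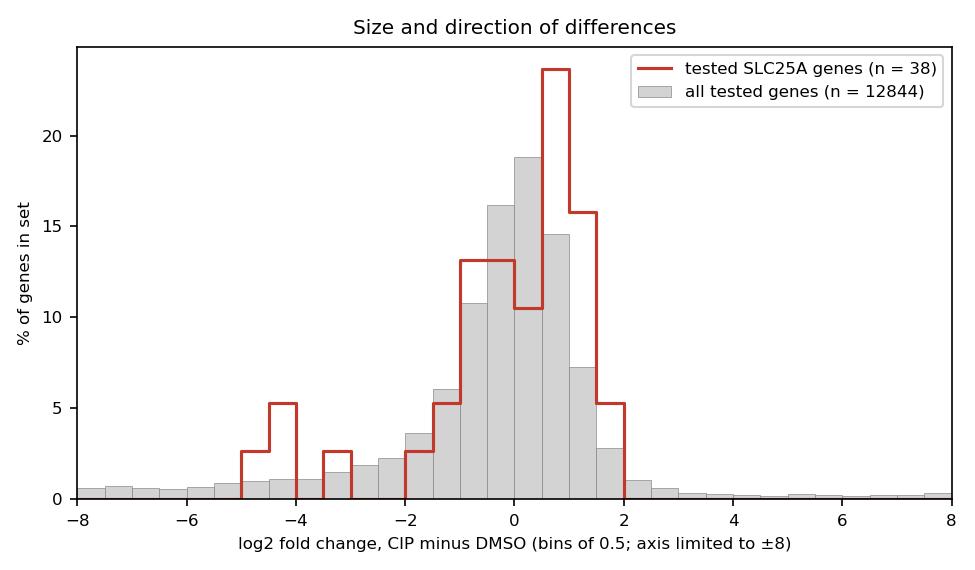
Share of genes (%) by log2 fold change in bins of 0.5, for all 12844 tested genes (grey bars) and the 38 tested SLC25A genes (red line), with the axis limited to ±8. The median is 0.24 for the members and -0.03 for all tested genes. The members run from -4.80 to 2.00 and all tested genes from -13.10 to 13.47, in part beyond the axis.

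The summed level of the family differed by little, and the direction of the difference depended on the scaling. The 48 genes took 0.233% ± 0.00174 (SD, n = 3) of all counts with the CIP label and 0.266% ± 0.00252 (n = 3) with the DMSO label, but after TMM scaling they summed to 2524 ± 38.1 CPM against 2452 ± 19.4 CPM. Neither form overlapped between groups, and the exact 2-sided permutation test gave p = 0.10 for both, the smallest that 3 against 3 libraries allow. Between 39 and 41 members had a read in any 1 library. SLC25A6, SLC25A5, SLC25A3 and SLC25A37 alone held 65.4% to 66.2% of the family's counts in the CIP-labelled libraries and 67.2% to 70.1% in the DMSO-labelled ones.

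**Figure D3:**
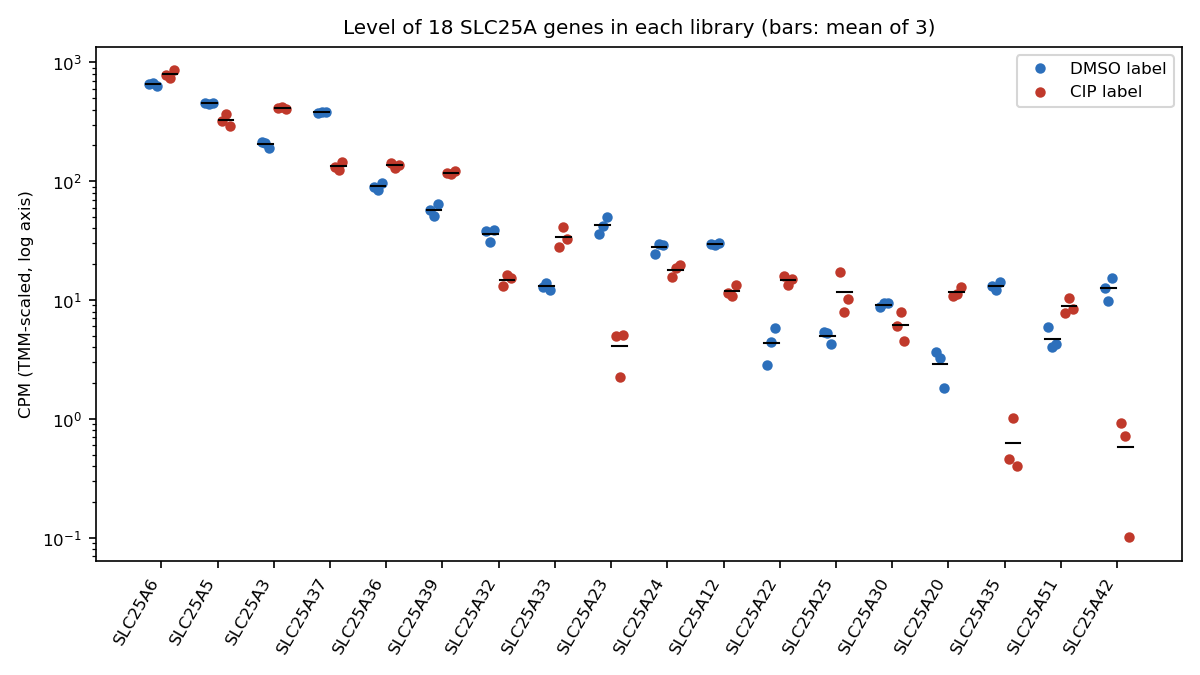
Level (TMM-scaled CPM, log axis) of 18 SLC25A genes in each of the 6 libraries, with black bars at the mean of 3 libraries. The points of the 2 labels overlap for none of the 18 genes, which were chosen for large called differences or high level. The libraries did not overlap for 32 of all 38 tested members and for 75.4% of all tested genes. The gap is widest for SLC25A23, SLC25A35 and SLC25A42.

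The ADP/ATP carriers exchange matrix ATP for cytosolic ADP and are the most abundant proteins of the family. SLC25A6 (chromosome X, 1386152 to 1392113, GRCh38), in the pseudoautosomal region, was the highest member with both labels. It stood at 777, 743 and 857 CPM in CIP replicates 1 to 3 and at 659, 673 and 630.1 CPM in DMSO replicates 1 to 3. All CIP-labelled libraries were above the others, by an edgeR log2 fold change of 0.28 ± 0.06 SE at an adjusted p of 2.2e-04, a call that was lost with library totals alone (log2 fold change 0.04, adjusted p = 0.51). SLC25A5 (chromosome X, 119468444 to 119471396), the isoform of growing cells, stood at 319, 366 and 292 CPM with the CIP label and at 458, 442 and 454 CPM with the DMSO label. It was lower with the CIP label in every library, by -0.47 ± 0.07 on the log2 scale (SE, edgeR adjusted p = 2.4e-07).

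The proportion of the 2 abundant isoforms differed between the labels. SLC25A5 made up 29.1% ± 3.77 (SD, n = 3) of the ADP/ATP carrier counts with the CIP label and 40.8% ± 1.07 (n = 3) with the DMSO label, and SLC25A6 made up 70.6% ± 3.76 against 59.1% ± 1.17. A share of this kind does not depend on scaling between libraries. The ranges did not overlap, and the exact 2-sided permutation p was 0.10, the smallest possible. SLC25A4, the isoform of heart and skeletal muscle, was rare, at 4.503, 2.45 and 2.82 CPM against 0.593, 0.765 and 3.27 CPM. Its groups overlapped through DMSO replicate 3, and its call was marginal (log2 fold change 1.10 ± 0.50, edgeR adjusted p = 0.049). Without DMSO replicate 3 the log2 fold change was 2.22, and without DMSO replicate 1 it was 0.70 with an adjusted p of 0.24. Of 8 muscle genes read beside it, MB and DES had no read, and their summed level was 1.43 to 8.43 CPM with the CIP label and 19.5 to 25.6 CPM with the DMSO label, mostly from TNNT1 in the DMSO-labelled libraries (14.4 to 16.7 CPM). Apart from TNNT1, MYH7 had 17, 1 and 17 counts with the CIP label and 2, 5 and 21 with the DMSO label, and MYL2 had 26, 0 and 18 against 0, 4 and 22. Both were highest among the DMSO-labelled libraries in replicate 3, where SLC25A4 was highest too, and neither passed edgeR's test (adjusted p = 0.71 and 0.66). TNNI3 went the other way, with 51, 43 and 34 counts in DMSO replicates 1 to 3 and 22, 9 and 16 in CIP replicates 1 to 3. It was called lower with the CIP label (log2 fold change -1.37, edgeR adjusted p = 0.0032). ACTA1 had 4, 1 and 1 counts with the DMSO label. The part of muscle genes in the SLC25A4 level was not tested. SLC25A31, the isoform of the male germ line, had 0 counts in all 6 libraries. The antisense RNA SLC25A5-AS1, which overlaps the 5′ end of SLC25A5, had 8, 21 and 16 counts with the CIP label and 49, 37 and 46 with the DMSO label. SLC25A5 and SLC25A6 have many processed pseudogenes in the genome, so how their reads were assigned bears on these levels. The only symbols in the files of the form of an SLC25A pseudogene, SLC25A3P1, SLC25A51P1 and SLC25A51P4, had 0 counts.

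SLC25A3 (chromosome 12, 98593686 to 98606367) carries the phosphate that ATP synthase joins to ADP, and also copper. It had 413, 418 and 405 CPM with the CIP label and 213, 211 and 192 CPM with the DMSO label, an edgeR log2 fold change of 1.00 ± 0.06 SE at an adjusted p of 9.2e-16. By mean level it ranked 2 with the CIP label and 4 with the DMSO label. SLC25A3 and SLC25A5, ranks 2 and 3 with the CIP label, did not overlap there, while SLC25A36 and SLC25A37, ranks 4 and 5, did.

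The ATP-Mg/phosphate carriers adjust the total adenine nucleotide pool of the matrix, and 3 of them, SLC25A23, SLC25A24 and SLC25A25, respond to cytosolic calcium. The makeup of this set differed widely between the labels. SLC25A23 (chromosome 19, 6436081 to 6459792, minus strand) stood at 4.97, 2.25 and 5.04 CPM with the CIP label and at 35.7, 42.3 and 50.3 CPM with the DMSO label. That difference was 10.5-fold, or -3.39 ± 0.20 on the log2 scale (SE, edgeR adjusted p = 9.7e-15). SLC25A24 was lower as well, at 15.6, 18.6 and 19.7 CPM against 24.3, 29.7 and 29.1 CPM (log2 fold change -0.62 ± 0.15, edgeR adjusted p = 2.9e-04). SLC25A25 went the other way, at 17.1, 7.98 and 10.2 CPM against 5.33, 5.26 and 4.29 CPM. Its log2 fold change was 1.23 ± 0.26 (SE, edgeR adjusted p = 9.7e-05). CIP replicate 1 was the highest, and without that library the change was 0.88. The noncoding RNA SLC25A25-AS1 had 83, 75 and 70 counts with the CIP label and 24, 22 and 24 with the DMSO label.

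SLC25A41, a shorter carrier of the same kind, lies next to SLC25A23 on chromosome 19 (6426037 to 6436267), on the same strand, and shares 187 bases with its 3′ end in the RefSeq annotation. Its counts were 0, 4 and 0 with the CIP label against 28, 47 and 49 with the DMSO label. From the summed counts it was 29.9 times lower with the CIP label (exact 95% interval 11.4 to 111.4, counting error only), and edgeR's adjusted p was 1.4e-07. The 187 shared bases hold the 3′ end of SLC25A23 and the start of SLC25A41, away from the 3′ end of SLC25A41. How reads from the end of SLC25A23 were counted there is not known, so the pair was not read as independent evidence. As a share of the 4 genes, SLC25A23 went from 53.5% ± 2.51 (SD, n = 3) with the DMSO label to 11.8% ± 3.58 (n = 3) with the CIP label. SLC25A24 went from 34.9% ± 1.98 to 53.8% ± 11.3 and SLC25A25 from 6.36% ± 1.52 to 33.9% ± 9.98. None of these ranges overlapped, with an exact 2-sided permutation p of 0.10 for each, the smallest possible.

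**Figure D4:**
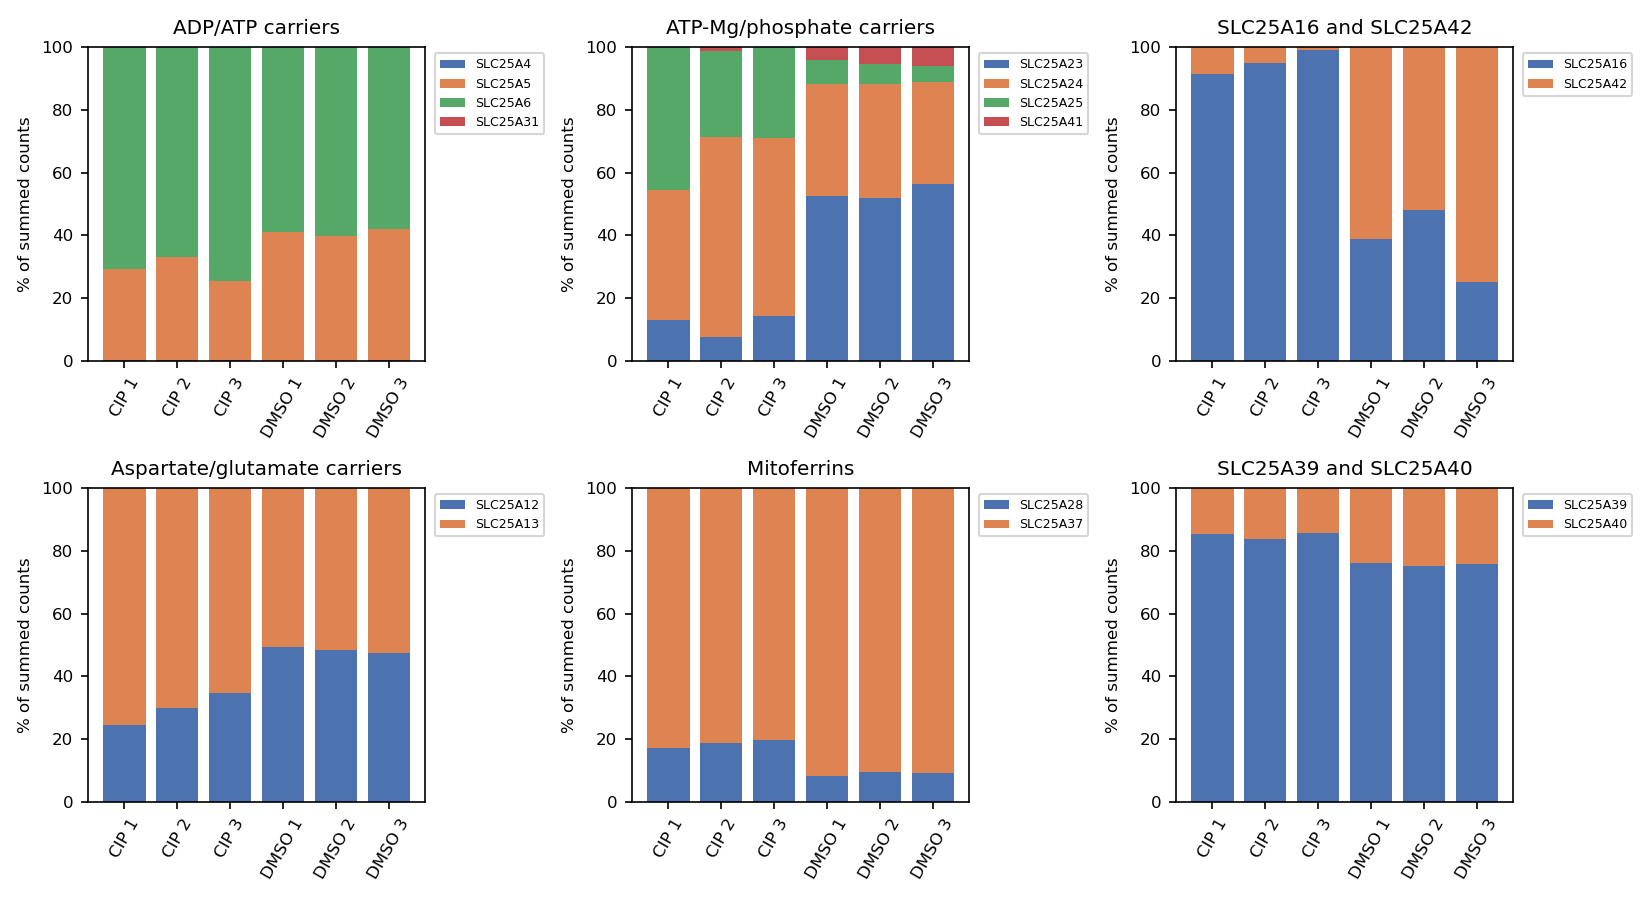
Share (%) of each gene in the summed counts of 6 sets of related SLC25A genes, by library. SLC25A23 takes 7.69% to 14.4% of its set in the CIP-labelled libraries and 51.8% to 56.4% in the DMSO-labelled ones, and SLC25A42 takes 0.855% to 8.60% against 52.02% to 74.9%.

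Among carriers of nucleotides and cofactors all 10 tested members passed, of which 7 rose (70.0%, beside 34.9% of all tested genes) and 3 fell, beside 38.2%. SLC25A33 and SLC25A36 import pyrimidine nucleotides for mitochondrial DNA and RNA. SLC25A33 (chromosome 1, 9539465 to 9585173) stood at 28.2, 41.1 and 32.9 CPM with the CIP label and at 12.9, 13.97 and 12.2 CPM with the DMSO label, and its log2 fold change was 1.38 ± 0.15 (SE, edgeR adjusted p = 6.7e-10). SLC25A36 (chromosome 3, 140941836 to 140980995) stood at 142, 129 and 138 CPM against 90.2, 83.6 and 97.4 CPM, with a log2 fold change of 0.60 ± 0.08 (edgeR adjusted p = 2.3e-08). Both rose without overlap, and the share of SLC25A33 in the pair went from 12.7% ± 1.60 to 20.0% ± 3.84 (SD, n = 3, exact 2-sided permutation p = 0.10, the smallest possible). SLC25A51 (chromosome 9, 37877575 to 37904127), which imports NAD+, stood at 7.85, 10.3 and 8.46 CPM against 5.93, 4.02 and 4.29 CPM, with a log2 fold change of 0.90 ± 0.26 (edgeR adjusted p = 0.0026). Its near-identical copy SLC25A52 had 0 counts, and reads of the 2 genes could be hard to tell apart.

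The promoters of SLC25A33, SLC25A36 and SLC25A51 are shown because these genes rose and each holds the E-box CACGTG, a site that MYC and related factors are known to bind, and that of SLC25A31 because it holds 4 E-boxes in a gene with no read. RefSeq (GRCh38.p14) gave a promoter of 300 bases, from 250 before to 50 after the start site, for 40 of the 48 members. The E-box, which reads the same on both strands, was in 7 of those 40 (17.5%) and in 7.26% of all 35116 promoters of the same length. The 2 sets of promoters were not matched for base composition. The 7 were SLC25A33, SLC25A36 and SLC25A51, SLC25A38, which fell, SLC25A13 and SLC25A46, which did not pass, and SLC25A31. Neither CGCATGCG, a core of the NRF1 motif, nor TGATGCAA, a composite C/EBP-ATF element, was found on either strand in the 40 windows, beside 2.02% and 0.866% of all promoters. The 160 bases before each start site are given 5′ to 3′ on the gene's own strand, with the E-box in capitals, and the match is a description of letters and not of binding.
SLC25A33, chr1:9539305-9539464, plus strand: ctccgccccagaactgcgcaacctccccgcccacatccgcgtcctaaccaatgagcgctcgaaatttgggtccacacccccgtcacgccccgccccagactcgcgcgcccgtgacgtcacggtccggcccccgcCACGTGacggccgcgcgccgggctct
SLC25A36, chr3:140941676-140941835, plus strand: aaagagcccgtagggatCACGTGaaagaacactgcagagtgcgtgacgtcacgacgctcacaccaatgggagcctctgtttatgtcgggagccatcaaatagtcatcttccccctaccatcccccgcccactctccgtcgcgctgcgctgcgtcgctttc
SLC25A51, chr9:37904128-37904287, minus strand: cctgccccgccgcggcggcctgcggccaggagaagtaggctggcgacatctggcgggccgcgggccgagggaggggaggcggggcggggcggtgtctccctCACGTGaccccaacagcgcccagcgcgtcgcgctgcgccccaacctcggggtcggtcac
SLC25A31, chr4:127730240-127730399, plus strand: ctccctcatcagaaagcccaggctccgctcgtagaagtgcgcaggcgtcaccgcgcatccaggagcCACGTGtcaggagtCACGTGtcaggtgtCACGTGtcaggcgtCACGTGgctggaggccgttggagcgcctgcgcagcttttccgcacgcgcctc

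The E-box starts 26 bases before the start site in SLC25A33, 59 bases before it in SLC25A51 and 143 bases before it in SLC25A36. In SLC25A31 the 4 E-boxes start 94, 80, 66 and 52 bases before it. MYC was at 279.8 ± 52.3 CPM (SD, n = 3) with the CIP label and at 41.7 ± 3.89 CPM (n = 3) with the DMSO label. Binding at these promoters was not measured, and a link between MYC and the levels of these genes was not tested. The E-box was not limited to members that rose.

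Coenzyme carriers split sharply. SLC25A42 (chromosome 19, 19063994 to 19113030), which imports coenzyme A in exchange for adenine nucleotides, stood at 0.924, 0.716 and 0.101 CPM with the CIP label and at 12.6, 9.85 and 15.5 CPM with the DMSO label. All CIP-labelled libraries were near the floor of detection, at 8, 7 and 1 counts, and the log2 fold change was -4.45 ± 0.39 (SE, edgeR adjusted p = 2.6e-12). From summed counts it was 22.2 times lower (exact 95% interval 13.5 to 39.2, counting error only). SLC25A16, a relative of SLC25A42, went from 7.43 ± 2.01 to 11.7 ± 1.89 CPM (log2 fold change 0.65, edgeR adjusted p = 0.012), a call lost without CIP replicate 2 (adjusted p = 0.058), without DMSO replicate 3 (0.0999) and with library totals alone (0.10). SLC25A42 made up 62.7% ± 11.5 (SD, n = 3) of the pair's counts with the DMSO label and 4.82% ± 3.88 (n = 3) with the CIP label (exact 2-sided permutation p = 0.10, the smallest possible). SLC25A17, which carries coenzyme A and related cofactors into peroxisomes, rose from 11.9 ± 1.69 to 21.7 ± 0.601 CPM.

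SLC25A26, the carrier of S-adenosylmethionine, rose from 28.8 ± 4.30 to 40.95 ± 1.007 CPM. SLC25A32, the carrier of folate and FAD, fell. It stood at 13.05, 16.4 and 15.2 CPM with the CIP label and at 38.4, 30.5 and 38.9 CPM with the DMSO label, an edgeR log2 fold change of -1.27 ± 0.14 SE at an adjusted p of 1.2e-09. SLC25A43, whose substrate is not known, fell from 26.0 ± 1.84 to 18.2 ± 2.47 CPM. Of 17 genes that make or use these cofactors, 9 rose, 4 fell and 4 did not pass, beside the 34.9% and 38.2% of all tested genes. MAT2A, which makes S-adenosylmethionine, rose by 0.82 ± 0.07 on the log2 scale (SE, edgeR adjusted p = 5.4e-12). SHMT2 and MTHFD1 of folate metabolism fell, the first from 215.5 ± 5.99 to 153.9 ± 1.39 CPM. Of the pantothenate kinases, which start coenzyme A synthesis, PANK1 and PANK3 rose and PANK2 fell.

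The di- and tricarboxylate carriers were split evenly, with 2 of 4 tested members higher and 2 lower, beside 73.1% of all tested genes called in either direction. SLC25A35 (chromosome 17, 8287763 to 8295400), a carrier with no settled substrate, had the largest change of the group. It stood at 0.462, 1.02 and 0.403 CPM with the CIP label and at 13.04, 12.1 and 14.1 CPM with the DMSO label, an edgeR log2 fold change of -4.34 ± 0.34 SE at an adjusted p of 2.3e-13. Counts were 4, 10 and 4 against 132, 127 and 125. RANGRF, which lies within its span on the opposite strand, was at 29.6 ± 4.18 against 37.4 ± 3.86 CPM (log2 fold change -0.33). SLC25A34, the closest relative, had 2 counts in each CIP-labelled library and 8, 6 and 4 in the DMSO-labelled ones and was not tested.

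SLC25A10, which exchanges malate or succinate for phosphate, rose from 13.7 ± 1.56 to 24.7 ± 2.89 CPM (log2 fold change 0.85, edgeR adjusted p = 1.3e-05). SLC25A11, the oxoglutarate-malate exchanger of the malate-aspartate shuttle, fell from 38.9 ± 3.75 to 27.4 ± 1.89 CPM (log2 fold change -0.50, edgeR adjusted p = 3.7e-04). SLC25A1, which exports citrate for fatty acid and sterol synthesis, was at 50.2 ± 4.03 against 41.9 ± 0.750 CPM. Its call (edgeR adjusted p = 0.025) did not hold with upper-quartile scaling, with DESeq2, with library totals alone (adjusted p = 0.83) and without CIP replicate 1 or any 1 of the 3 DMSO replicates. SLC25A21, the carrier of oxoadipate, had 0 counts.

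The malate-aspartate shuttle moves cytosolic reducing power into the matrix and needs SLC25A11 and an aspartate/glutamate carrier. SLC25A12 (chromosome 2, 171783405 to 171894244) stood at 11.4, 10.8 and 13.4 CPM with the CIP label and at 29.6, 28.8 and 30.3 CPM with the DMSO label, an edgeR log2 fold change of -1.31 ± 0.15 SE at an adjusted p of 1.8e-09. Its paralog SLC25A13, citrin, stood at 34.99, 25.5 and 25.3 CPM against 30.3, 30.7 and 33.7 CPM, the groups overlapped, and it did not pass (log2 fold change -0.15 ± 0.13, edgeR adjusted p = 0.31). With library totals alone SLC25A13 was called lower, at -0.38. SLC25A12 made up 29.7% ± 5.01 (SD, n = 3) of the pair with the CIP label and 48.4% ± 1.03 (n = 3) with the DMSO label, without overlap (exact 2-sided permutation p = 0.10, the smallest possible). Of 8 enzymes of the shuttle and of citrate use, 6 rose, 0 fell, and MDH1 and MDH2 did not pass, so that 75.0% were called, close to the 73.1% of all tested genes. Among those that rose, the aspartate aminotransferases GOT1 and GOT2 had log2 fold changes of 0.49 and 0.37.

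Among carriers of amino acids, carnitine and glutathione, 5 of 11 tested members rose, 2 fell and 4 did not pass. The 63.6% called was below the 73.1% of all tested genes. SLC25A20 (chromosome 3, 48856926 to 48898882), which brings acylcarnitines to fatty acid oxidation, had the largest rise of the family. It stood at 10.9, 11.4 and 12.99 CPM with the CIP label and at 3.66, 3.25 and 1.81 CPM with the DMSO label, an edgeR log2 fold change of 2.00 ± 0.27 SE at an adjusted p of 6.4e-08. Of 4 tested genes of the carnitine shuttle, 1 rose and 3 fell, beside 34.9% and 38.2% of all tested genes. CPT1A, which makes acylcarnitines at the outer membrane, rose from 118.7 ± 3.17 to 368.9 ± 16.0 CPM, while CPT2 of the matrix side fell from 21.7 ± 4.25 to 14.7 ± 1.20 CPM. CRAT, the carnitine acetyltransferase, fell from 14.4 ± 1.44 to 0.377 ± 0.250 CPM, and the carnitine importer SLC22A5 fell as well.

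SLC25A22 (chromosome 11, 790475 to 798281) carries glutamate into the matrix. It stood at 16.1, 13.3 and 15.1 CPM against 2.86, 4.40 and 5.87 CPM, an edgeR log2 fold change of 1.76 ± 0.24 SE at an adjusted p of 7.1e-08. Its paralog SLC25A18 had 0 counts. SLC25A15, the ornithine carrier of the urea cycle, rose from 7.75 ± 1.21 to 12.9 ± 0.622 CPM, and its intronless paralog SLC25A2 had 0 counts. SLC25A29, a carrier of basic amino acids, was called higher, at 39.7 ± 3.27 against 26.9 ± 4.55 CPM. Its 3′ end overlaps that of YY1 on the opposite strand, and YY1 also rose, from 178.3 ± 8.53 to 270.1 ± 5.73 CPM, so that without a known strand setting the reads of the 2 genes cannot be told apart. SLC25A44, which carries branched-chain amino acids, and SLC25A45 did not pass. SLC25A44 stood at 25.3 ± 2.56 against 21.7 ± 0.786 CPM.

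SLC25A39 (chromosome 17, 44319628 to 44324823) imports glutathione, the main thiol antioxidant of the matrix. It stood at 117, 116 and 122 CPM with the CIP label and at 56.7, 50.5 and 64.5 CPM with the DMSO label, an edgeR log2 fold change of 1.05 ± 0.09 SE at an adjusted p of 7.0e-13. Its paralog SLC25A40 stood at 20.9 ± 1.15 against 18.4 ± 2.01 CPM and did not pass (edgeR adjusted p = 0.28). The share of SLC25A39 in the pair was 85.0% ± 0.969 (SD, n = 3) with the CIP label and 75.6% ± 0.473 (n = 3) with the DMSO label, without overlap (exact 2-sided permutation p = 0.10, the smallest possible).

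Both mitoferrins, which bring iron to haem and iron-sulphur synthesis, were lower with the CIP label. SLC25A37, mitoferrin-1, is best known from erythroid cells and was the third most abundant member with the DMSO label. It stood at 132, 124 and 145 CPM with the CIP label and at 374, 385 and 382 CPM with the DMSO label, an edgeR log2 fold change of -1.51 ± 0.07 SE at an adjusted p of 5.5e-20. SLC25A28, mitoferrin-2, is found in most tissues and stood at 27.1, 28.7 and 35.3 CPM against 33.9, 41.3 and 38.6 CPM. Its groups overlapped, and its call (log2 fold change -0.32 ± 0.12, edgeR adjusted p = 0.021) was lost without CIP replicate 1 (adjusted p = 0.13), CIP replicate 2 (0.069) or DMSO replicate 2 (0.096). SLC25A37 made up 81.5% ± 1.30 (SD, n = 3) of the pair with the CIP label and 90.9% ± 0.692 (n = 3) with the DMSO label (exact 2-sided permutation p = 0.10, the smallest possible). SLC25A38, the glycine carrier needed for the first step of haem synthesis, fell from 43.1 ± 2.32 to 33.5 ± 1.95 CPM (log2 fold change -0.36, edgeR adjusted p = 0.0037).

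Of 11 erythroid marker genes 7 had no read in any library, among them HBA2, HBG1, HBG2, ALAS2, EPB42 and AHSP, and the list summed to 1.23 to 2.19 CPM with the CIP label and 2.01 to 2.27 CPM with the DMSO label. The defining erythroid markers were thus at or near 0 beside the high SLC25A37 level of the DMSO-labelled libraries. Of 14 tested genes of haem and iron-sulphur synthesis, 7 rose, 4 fell and 3 did not pass. The called share, 78.6%, was near the 73.1% of all tested genes. Of these, GLRX5, an iron-sulphur transfer protein, rose from 55.02 ± 3.31 to 203.6 ± 14.9 CPM and ABCB10, a membrane partner of mitoferrin-1, from 15.5 ± 2.23 to 79.0 ± 11.5 CPM. FECH, the ferrochelatase that places iron in haem, fell from 31.8 ± 1.63 to 22.5 ± 2.74 CPM, and ALAS1 did not pass.

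The members named for their likeness to uncoupling proteins were low and fell slightly. SLC25A14 stood at 8.03 ± 1.77 against 11.8 ± 1.74 CPM (log2 fold change -0.55 ± 0.22, edgeR adjusted p = 0.026). SLC25A30 stood at 6.00, 7.87 and 4.53 CPM with the CIP label and at 8.69, 9.38 and 9.36 CPM with the DMSO label (log2 fold change -0.58 ± 0.25, edgeR adjusted p = 0.037). Neither call held when single libraries were left out: SLC25A14 was lost without CIP replicate 1 (adjusted p = 0.15), DMSO replicate 2 (0.057) or DMSO replicate 3 (0.10), and SLC25A30 without each library except CIP replicate 2, with adjusted p of up to 0.19. SLC25A46, an outer membrane protein of mitochondrial fission and fusion, stood at 15.4 ± 2.46 against 16.6 ± 0.711 CPM and did not pass. SLC25A27, the neuronal member of the group, had 3 counts with the CIP label and 1 with the DMSO label.

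Members without a read were SLC25A2, SLC25A18, SLC25A21, SLC25A31, SLC25A47 and SLC25A52. A count of 0 allows up to 3 counts, which is 0.287 to 0.346 CPM in a library. SLC25A53, SLC25A48, SLC25A34 and SLC25A27 had reads but too few to be tested, and SLC25A53 was the highest of them, at 0.542 ± 0.514 against 1.12 ± 0.386 CPM.

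Family members with other symbols and other routes into mitochondria were read in the same way. UCP2, the uncoupling protein of blood cells, rose from 92.6 ± 10.8 to 140.9 ± 13.3 CPM, and MTCH1, an outer membrane relative, fell from 234.2 ± 22.07 to 88.3 ± 4.17 CPM, while MTCH2 stood at 191.7 ± 12.7 against 187.8 ± 10.8 CPM and did not pass. Of 18 other mitochondrial solute carriers and channels, 10 rose and 7 fell (94.4% called, beside 73.1% of all tested genes). The mitochondrial pyruvate carrier subunits went apart, with MPC1 at a log2 fold change of 0.26 and MPC2 at -0.64. MCU, the pore of the calcium uniporter, and its inhibitory paralog MCUB fell, the latter from 14.2 ± 2.04 to 1.24 ± 0.204 CPM. Of the 13 genes of the import route that inserts SLC25 carriers into the inner membrane, 8 rose, 1 fell and 4 did not pass. The share that rose was 61.5%, beside 34.9% of all tested genes, and the share that fell 7.69%, beside 38.2%. The called share, 69.2%, was slightly below the 73.1% of all tested genes. The small chaperones of the intermembrane space TIMM9, TIMM10 and TIMM13 rose, with log2 fold changes of 0.91, 0.43 and 1.05. TIMM8B and TIMM10B rose as well, while TIMM8A did not pass (log2 fold change -0.19, edgeR adjusted p = 0.23). TIMM22, the insertion pore, did not pass either (log2 fold change -0.27, edgeR adjusted p = 0.15). Of 16 general mitochondrial proteins, 9 rose, 5 fell and 2 did not pass (87.5% called, beside 73.1% of all tested genes), with a median log2 fold change of 0.42 beside 0.24 for the tested SLC25A genes.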

How the data were processed

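Gene expression was read from 6 QuantSeq 3′ libraries, 3 per label, grouped and numbered by their titles. Each deposited file holds 1 library as raw counts by gene symbol, according to its header. Per the submitters' processing notes, the tools included STAR, HTSeq, fastp and bcl2fastq 2.20.0.422, with the build GRCh38. No source used here gives the annotation release, the strand setting or how multiply mapped reads were handled.

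Counts were filtered with filterByExpr and tested over all 12844 genes kept with edgeR 4.0.16 (R 4.3.3; TMM, robust quasi-likelihood, group alone, 2-sided, Benjamini-Hochberg adjustment), and with glmTreat against a 2-fold change. CPM is counts over TMM-scaled library totals, and SE was taken as the absolute log2 fold change divided by the square root of F. Shares within sets of related genes used an exact permutation test. The code was tested on simulated data. Positions and promoters are from RefSeq (GRCh38.p14), matched by symbol, with a position for all 48 members and a promoter for 40 of them. Gene strand came from GENCODE. In RefSeq, 30 members overlap another gene. The members, subgroups and related lists were chosen with earlier results of these data known. Values in every library are given for the 8 called members per direction with the largest change at 5 CPM or more, the 6 most abundant members and the most changed member of each subgroup. Values in every library or single values of other members were added after the results were seen. No library pair of a group looked like 1 library deposited again (chi-square over genes, 3.82 to 7.66 for each gene). Alternatives were scaling by upper quartile, RLE or library totals alone, 2 other filters, limma-voom (limma 3.58.1), DESeq2 1.42.0, non-robust dispersion, thinning, pseudogene counts added to the parent gene, leaving out single libraries, and a block for replicate number. Counts cover all members, but 1 member is not reported here by name or value, in text or figures.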

Additional observations from a re-analysis of the deposited data

How the results depend on the processing

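The counts of members called higher (18) and lower (15) stayed within 14 to 18 and 12 to 16 over all alternatives, and the count past the 2-fold test (11) within 8 to 11, with 8 by both DESeq2 and limma-voom. Leaving out 1 library at a time gave 16 to 18 higher, 12 to 14 lower and 9 to 11 past 2-fold, with a median log2 fold change of 0.21 to 0.26. With library totals alone the split was 14 higher and 16 lower, the median log2 fold change fell to 0.0073, and among all called genes the share that was lower went from 52.3% to 63.2%. SLC25A44 and SLC25A40, which were not called, then turned to -0.012 and -0.049, and SLC25A46, also not called, turned to 0.029 without CIP replicate 2 (-0.18 to 0.029 with 1 library left out); the cause was not tested. With the replicate number as a replicate block, 18 members were higher and 14 lower, with only SLC25A30 lost. Same-numbered libraries did not deviate together (r = -0.019, -0.027 and -0.0099). These values gave no sign of pairing by number, but they cannot show that the libraries were not paired. Adding pseudogene counts could change no value, because those symbols had 0 counts, and the assignment of reads to pseudogenes was not tested. Over 646 single-gene refits, 608 kept direction and side of the threshold, 34 lost the call, 1 gained it (SLC25A13) and 3 changed sign. The 608 include the 38 refits with pseudogene counts, which had to stay the same. Lost calls were those of SLC25A1, SLC25A4, SLC25A6, SLC25A14, SLC25A16, SLC25A28 and SLC25A30. Without CIP replicate 2, the library that held all 4 of its CIP-labelled counts, SLC25A41 had a fitted log2 fold change of -8.35. With 1 library left out, the difference in share (CIP minus DMSO, percentage points) ranged from -13.6 to -9.83 for SLC25A5, -21.1 to -16.1 for SLC25A12, -43.1 to -39.7 for SLC25A23, 5.23 to 9.02 for SLC25A33, -10.1 to -8.87 for SLC25A37, 8.99 to 9.91 for SLC25A39 and -63.2 to -51.8 for SLC25A42. Members under about 5 CPM, such as SLC25A4 and SLC25A41, are limited by depth.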
